A study of Mus musculus with 8 samples.

Results

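The 9 genes described here carry dopamine signals in the striatum: the receptors Drd1, Drd2 and Drd3, the adenosine receptor Adora2a, and 5 intracellular partners, Ppp1r1b, Gnal, Adcy5, Pde10a and Rgs9. They were taken by symbol from the 32285 genes of the deposited matrices, and all 9 were found. The study compared single nuclei from punches of the caudate putamen, which is the dorsal striatum, and of the anterior hippocampus of C57BL/6JN mice at 3 months (young) and 21 months (aged). No genetic change and no treatment is named for any group. Each region and age had 2 libraries, 8 in all, and each library pooled, in equal numbers, nuclei of 1 female and 1 male, all from the left hemisphere. Replicates are therefore pools of 2 mice, and p-values measure the spread between such pools.

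Dopamine acts on striatal medium spiny neurons through receptors of opposite sign. The D1 receptor, encoded by Drd1, raises cyclic AMP through the G protein alpha subunit Golf, encoded by Gnal, and adenylyl cyclase 5, encoded by Adcy5, while the D2 receptor lowers it. Neurons of the direct pathway carry D1 receptors with the peptide substance P, and neurons of the indirect pathway carry D2 receptors with the adenosine receptor encoded by Adora2a and with enkephalin. Cyclic AMP activates protein kinase A, which phosphorylates DARPP-32, the phosphatase inhibitor encoded by Ppp1r1b. Phosphodiesterase 10A, encoded by Pde10a, breaks cyclic nucleotides down, and Rgs9 encodes a protein that speeds the return of inhibitory G proteins to rest. Drd3 encodes a D2-type receptor known mainly from the ventral striatum.

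In the GRCm38 build, Drd1 lies on the minus strand at chr13:54051183-54055705 and Rgs9 on the minus strand at chr11:109225355-109298129. On the plus strand lie Drd2 at chr9:49340627-49408177, Drd3 at chr16:43754026-43822932, Adora2a at chr10:75316877-75334784, Ppp1r1b at chr11:98348404-98357796 and Adcy5 at chr16:35154877-35305738. Pde10a (chr17:8525372-8986648) overlaps the coding gene Gm17087, so some of its reads could come from that neighbour where counting ignored strand. The strand setting of the counting is not given in the sources used here.

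Upstream sequences of 4 of the genes are shown: the receptors that separate the neuron types (Drd1 and Drd2) and 2 partners that the types share (Adcy5 and Rgs9). Each run is the 250 bases before a transcription start of RefSeq in GRCm38.p6, read 5′ to 3′ on the gene's strand, and none of the 4 runs overlaps an exon of the GENCODE annotation. Capitals mark matches, on either strand, to 3 motifs: the GC box GGGCGG, the cyclic AMP response element half-site TGACG and the TATA box TATAAA. The Drd1 run, at chr13:54054781-54055030, lies before the downstream start of the gene's 2 starts. Those of Drd2, Adcy5 and Rgs9 lie at chr9:49340153-49340402, chr16:35154614-35154863 and chr11:109298182-109298431.
Drd1: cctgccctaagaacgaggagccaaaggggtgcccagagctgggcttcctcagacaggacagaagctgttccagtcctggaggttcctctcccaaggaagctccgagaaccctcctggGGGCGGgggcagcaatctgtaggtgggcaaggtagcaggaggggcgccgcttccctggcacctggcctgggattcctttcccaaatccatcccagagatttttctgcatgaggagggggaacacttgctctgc
Drd2: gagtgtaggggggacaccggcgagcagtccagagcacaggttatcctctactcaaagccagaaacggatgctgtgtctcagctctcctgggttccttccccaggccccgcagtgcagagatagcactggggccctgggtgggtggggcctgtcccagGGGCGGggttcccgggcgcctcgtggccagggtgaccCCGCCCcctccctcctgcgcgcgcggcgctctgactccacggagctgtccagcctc
Adcy5: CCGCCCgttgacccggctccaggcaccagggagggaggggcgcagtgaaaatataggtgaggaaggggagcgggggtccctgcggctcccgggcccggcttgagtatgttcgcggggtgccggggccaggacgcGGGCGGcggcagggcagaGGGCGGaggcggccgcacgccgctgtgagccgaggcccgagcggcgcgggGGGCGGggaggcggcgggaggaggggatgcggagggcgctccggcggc
Rgs9: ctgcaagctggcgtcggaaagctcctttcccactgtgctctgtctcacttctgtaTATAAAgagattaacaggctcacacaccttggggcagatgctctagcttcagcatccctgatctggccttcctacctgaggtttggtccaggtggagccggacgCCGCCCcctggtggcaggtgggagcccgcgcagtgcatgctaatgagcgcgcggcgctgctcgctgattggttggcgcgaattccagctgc

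The Drd1 run held 1 GC box, that of Drd2 held 2, that of Adcy5 4 and that of Rgs9 1. Rgs9 also held a TATA box, and none of the 4 held the half-site TGACG. Among runs not shown, those of the other Drd1 start, of Drd3 and of the downstream Pde10a start held none of the 3 motifs. The run of the upstream Pde10a start held 1 GC box. Among the 32851 RefSeq mouse promoter windows of the same length, 32.7% held GGGCGG, 17.8% TGACG and 12.4% TATAAA. These matches are descriptions of the letters in the windows. RefSeq entries matched 6 of the 9 genes (Drd1, Drd2, Drd3, Adcy5, Pde10a and Rgs9), and Adora2a, Ppp1r1b and Gnal had no entry in the table used.

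After filtering, 97830 nuclei remained of 109826 barcodes, with 6382 to 17031 nuclei and median depths of 6686 to 11266 UMIs (unique molecular identifiers, each marking 1 captured RNA molecule) per library. Total UMIs per library ranged from 67205436 to 234811422. Any pair of libraries, of 28 pairs, shared 21 to 146 barcodes, which was 0.316% to 0.774% of the smaller library. Nuclei were clustered without the 9 genes and 70 other pathway genes, and clusters are called X-like from marker genes. Clusters without a name held 8.34% of caudate putamen and 13.8% of hippocampal nuclei. The mix of caudate putamen clusters went with the replicate number at both ages: D1-like cluster c7 held 2024, 1204, 1817 and 737 nuclei in young replicates 1 and 2 and aged replicates 1 and 2, and choroid plexus-like nuclei, which lie outside the caudate putamen, appeared in the 2 libraries of replicate 1 only (71 and 59 nuclei). All lists of 4 values below keep that order of libraries. Levels are given in CPM, the UMIs of a gene per 1000000 UMIs of all genes, summed over the nuclei of a class in a library.

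D1-like nuclei numbered 17660, D2-like nuclei 13805 and nuclei like eccentric medium spiny neurons, a less common striatal type, 1125. Tac1, the substance P gene, measured 73.9 to 90.1 CPM in D1-like and 17.1 to 32.7 in D2-like nuclei, and Ebf1, a transcription factor of direct pathway neurons, 333 to 419 and 5.76 to 9.33. Eccentric-like nuclei held Tac1 at 175 to 248 CPM and Ebf1 at 5.01 to 10.2 CPM. Oligodendrocyte-like nuclei of the caudate putamen held Tac1 at 72 to 108 CPM and Ebf1 at 16.6 to 23.3 CPM. Interneurons were fewer, with 516 Pvalb/Pthlh-like, 305 Sst/Npy/Nos1-like, 153 cholinergic-like and 317 other interneuron-like nuclei. In the hippocampus there were 19098 dentate granule-like, 2399 CA1-like, 723 CA3-like, 806 interneuron-like and 819 nuclei like subicular or cortical excitatory neurons. Differences in level between classes are given below as descriptions without a test, because the classes were built from the same nuclei. The plot of all 9 genes by class shows the main pattern: each gene was highest, among neuronal classes, in a class of medium spiny neurons.

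**Figure D1:**
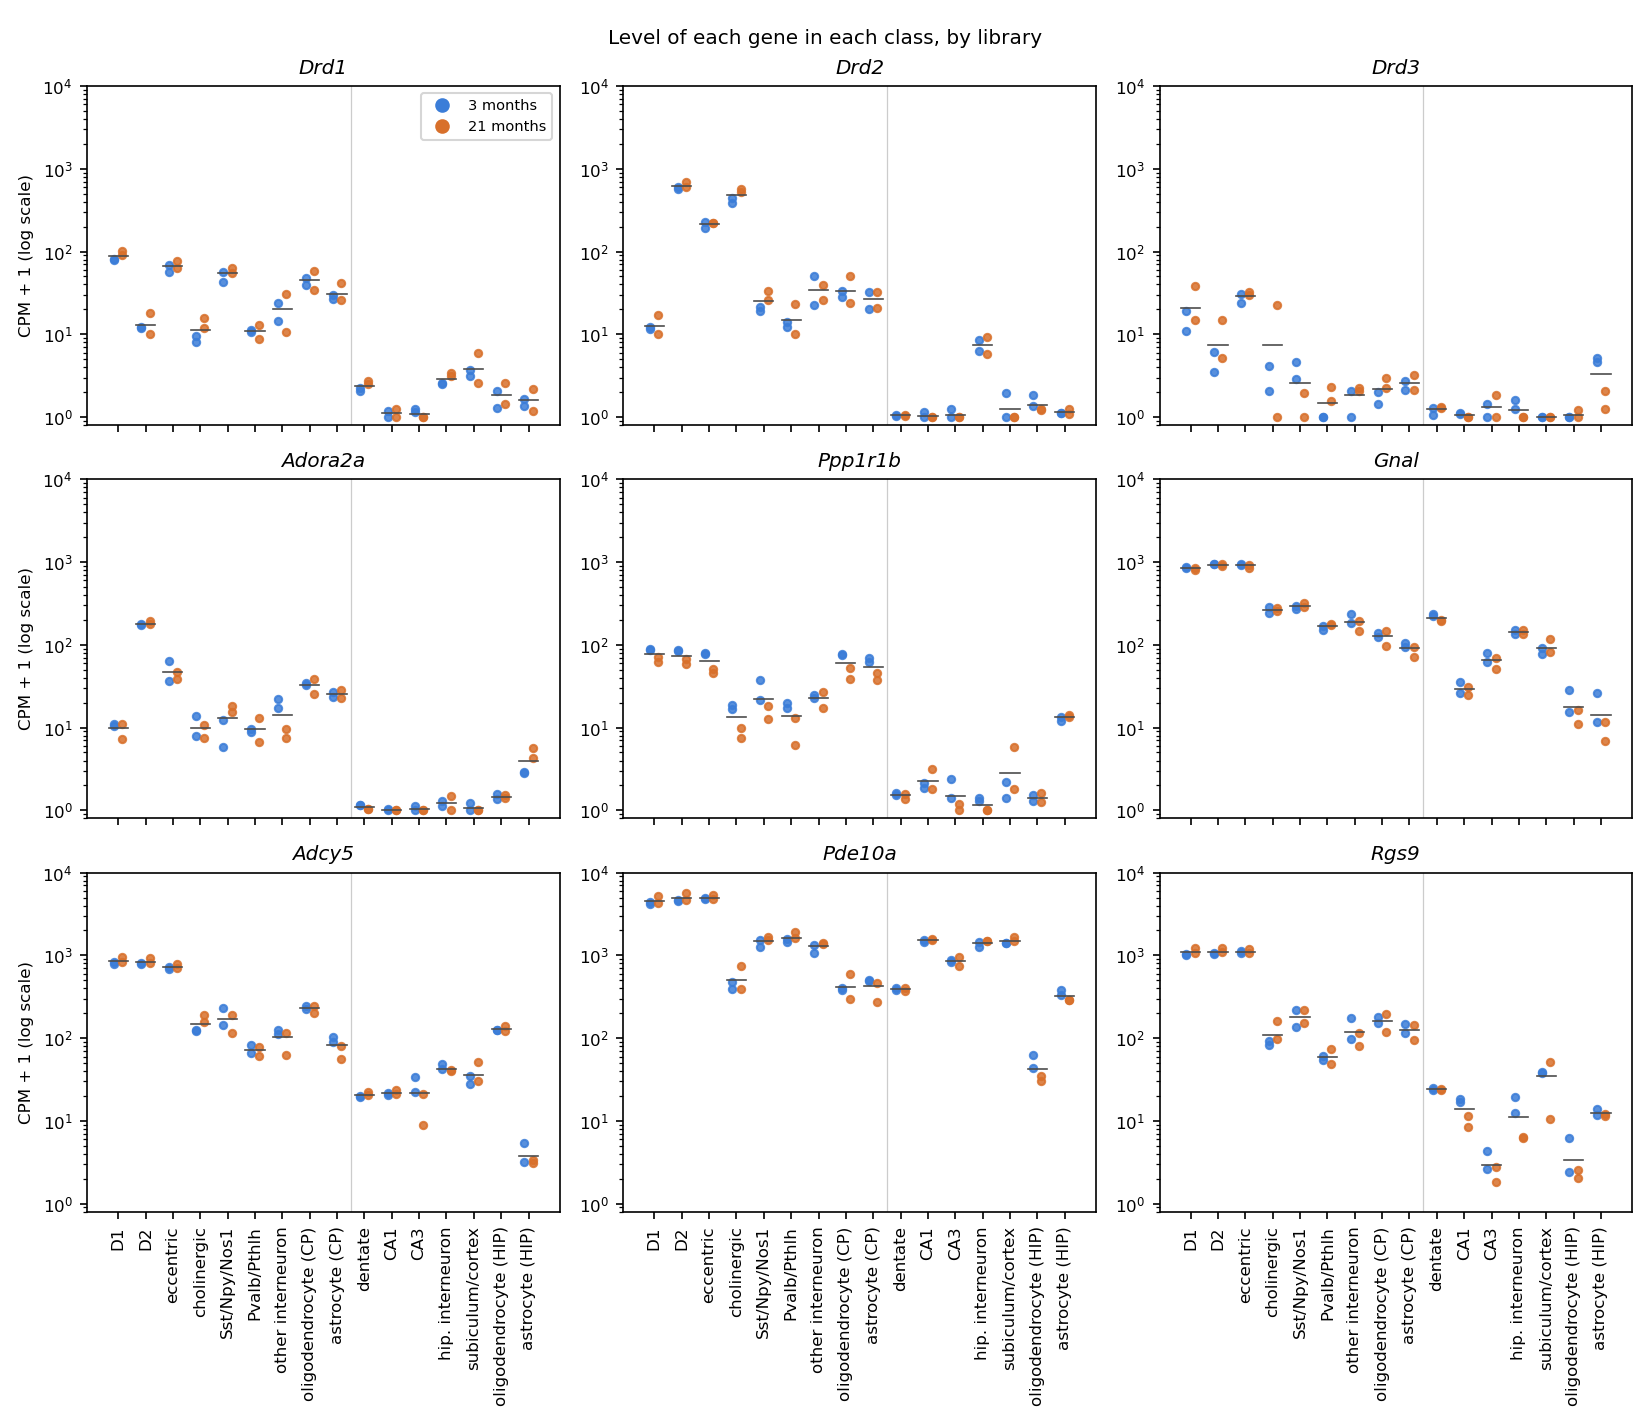
Level of each gene (CPM + 1, log axis) in each class, with a point per library (blue 3 months, orange 21 months) and a bar at the mean; the vertical line separates caudate putamen from hippocampal classes. Drd1, Drd2 and Adora2a separate D1-like from D2-like nuclei, whereas Gnal, Adcy5, Pde10a and Rgs9 stand close together in D1-like, D2-like and eccentric-like nuclei.

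Drd1 measured 79.7, 78.4, 89.4 and 99.4 CPM in D1-like nuclei, a mean of 86.7 ± 9.77 (SD, n = 4 libraries). In D2-like nuclei it measured 11, 11.2, 9.15 and 16.9 CPM, so that the D1-like level was 5.87 to 9.77 times higher within a library. Eccentric-like nuclei followed D1-like nuclei at 65.1 ± 9.03 CPM (n = 4), and Sst/Npy/Nos1-like interneurons came next with 42.1, 55.9, 54.1 and 62.4 CPM. The libraries of these last 2 classes overlapped, while all 4 D1-like values lay above every eccentric-like value.

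Free RNA in droplets can give UMIs to nuclei that do not express a gene, so levels in glia are given beside those of neurons; its part in any level was not tested. Oligodendrocyte-like nuclei of the caudate putamen held Drd1 at 46.8, 38.4, 33.6 and 57.7 CPM, which overlaps the range of the Sst/Npy/Nos1-like interneurons. The ratio of Drd1 to Adora2a was 3.67 to 8.75 in Sst/Npy/Nos1-like nuclei, where it rests on 4 to 18 Adora2a UMIs per library, and 1.15 to 1.53 in oligodendrocyte-like nuclei. Pvalb/Pthlh-like interneurons held Drd1 at 7.67 to 11.9 CPM with a ratio of 1.00 to 1.33. The Drd1 level of D2-like nuclei lay below that of oligodendrocyte-like nuclei in each of the 4 libraries.

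The fold between D1-like and D2-like nuclei was larger for Drd2 than for Drd1. Mean levels in the opposite type were close, at 12.1 CPM for Drd1 in D2-like and 11.7 CPM for Drd2 in D1-like nuclei. Drd2 measured 563, 598, 608 and 694 CPM in D2-like nuclei (616 ± 55.6, SD, n = 4) and 10.5, 11.2, 9.05 and 16.1 in D1-like nuclei, a fold of 43.3 to 67.2 within a library. Cholinergic-like interneurons, which release acetylcholine within the striatum, ranked second with 385, 439, 562 and 524 CPM, all below the lowest D2-like value. Their Drd2 level was 23.7 to 62.8 times that of Pvalb/Pthlh-like interneurons, and their Adora2a level was 6.38 to 12.7 CPM. Cholinergic-like nuclei had a median of 19828 to 25124 UMIs and numbered 19 in aged replicate 1, too few for a test of age. D1-like nuclei held less Drd2 than oligodendrocyte-like nuclei of the same library, which measured 22.6 to 48.9 CPM.

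Adora2a, whose receptor opposes the D2 receptor in the same cells, measured 177, 171, 176 and 195 CPM in D2-like nuclei (180 ± 10.5, n = 4). In D1-like nuclei it measured 9.51, 9.90, 6.22 and 10.0 CPM, 17.3 to 28.4 times less within a library. Caudate putamen oligodendrocyte-like nuclei held 24.2 to 37.7 CPM of Adora2a, above the D1-like nuclei in every library. Eccentric-like nuclei ranked second at 45.4 ± 12.2 CPM (n = 4), and none of their values reached the D2-like range.

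The 2 clusters named eccentric-like differed in their receptors. Cluster c12, of 337 nuclei, held Drd2 at 587, 623, 676 and 715 CPM and Adora2a at 101 to 146 CPM, with Drd1 at 7.73 to 23 CPM. Cluster c17, of 788 nuclei, held Drd1 at 81.1, 86.9, 82.6 and 94.9 CPM, with Drd2 at 22.9 to 49.7 CPM and Adora2a at 7.99 to 16.2 CPM. The Drd2 ranges of the clusters did not overlap in any library, so the class mean of 214 ± 14.6 CPM (n = 4) describes neither cluster. Another cluster, c23, of 707 nuclei, had all 8 eccentric markers but fewer than the 3 general markers of medium spiny neurons needed for a name, and it held Drd1 at 53.0 to 59.8 CPM and Drd2 at 7.60 to 30.4 CPM.

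Shares of nuclei with a UMI were compared after each nucleus was thinned to 3000 UMIs. At that depth 77.1%, 79.5%, 80.4% and 84.3% of D2-like nuclei held a Drd2 UMI, against 97.8%, 99.2%, 97.8% and 97.5% before thinning. Drd1 was found in 22.0%, 21.4%, 23.8% and 26.1% of thinned D1-like nuclei (66.1%, 68.9%, 66.7% and 61.9% before), above the 8.10% to 13.1% of oligodendrocyte-like nuclei. Whole D1-like nuclei held medians of 9786 to 15736 UMIs and whole oligodendrocyte-like nuclei 2510 to 3695, and thinning left out 2 to 31 D1-like and 757 to 2553 oligodendrocyte-like nuclei per library. Drd1 shares of 2.44% to 5.00% in D2-like nuclei lay below the oligodendrocyte-like share of the same library. The same order held for Drd2 in D1-like nuclei, at 2.35% to 4.37% against 5.77% to 13.1%. Before thinning, Drd2 shares of D1-like nuclei lay above the oligodendrocyte-like share in every library. Drd1 shares of whole D2-like nuclei did so in every library but young replicate 1. Thinning takes more UMIs from deeper nuclei, so neither order decides whether these UMIs are expression, which was not tested.

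Nuclei with both receptors were few after thinning. They made up 0.481%, 0.652%, 0.778% and 1.05% of D1-like nuclei and 2.76%, 2.60%, 1.93% and 4.45% of D2-like nuclei. Oligodendrocyte-like nuclei gave 0.842%, 1.15%, 0.444% and 2.44%, so the D1-like share lay below the oligodendrocyte-like share in 3 of 4 libraries. The D2-like share lay above it in 4 of 4. Among thinned D2-like nuclei with a Drd1 UMI, 75, 105, 57 and 181 also held Drd2 and 19, 34, 15 and 22 did not, while Drd2 was found in 80.3% ± 3.02 (SD, n = 4) of all D2-like nuclei at that depth. Before thinning the shares with both were 7.18%, 9.22%, 6.27% and 8.52% of D1-like and 13.3%, 14.5%, 9.96% and 14.2% of D2-like nuclei.

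**Figure D2:**
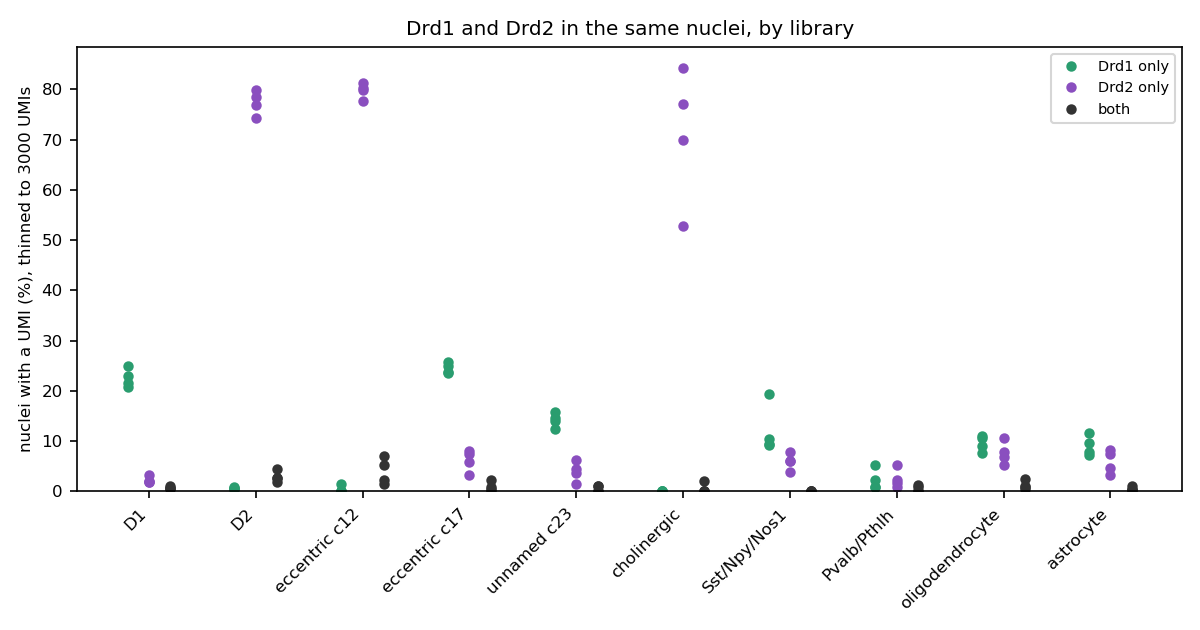
Percent of nuclei with a UMI of Drd1 only, of Drd2 only and of both, after thinning to 3000 UMIs, with a point per caudate putamen library for each class or cluster. Drd1-only nuclei lead in D1-like nuclei and eccentric-like cluster c17, Drd2-only nuclei lead in D2-like nuclei, eccentric-like cluster c12 and cholinergic-like nuclei, and nuclei with both reach at most 7.06%, in cluster c12.

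Drd3 varied by cluster among medium spiny neuron-like nuclei. Eccentric-like nuclei held 29.7, 23.1, 31.6 and 29 CPM, nearly all from cluster c17, at 46.3, 31.9, 44.9 and 38.6 CPM. The Drd2-rich cluster c12 held 0, 0, 0 and 1 Drd3 UMIs. Unnamed cluster c23 held 49.0, 59.8, 50.6 and 59.5 CPM, all above the eccentric-like cluster c17.

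D1-like nuclei held Drd3 at 18.2, 10.1, 37.5 and 13.9 CPM and D2-like nuclei at 5.03, 2.53, 13.8 and 4.11 CPM, a fold of 2.71 to 3.99 within a library. Within the D1-like class, clusters c6 (28.5, 26.5, 67.1 and 31.3 CPM) and c7 (23, 12, 40 and 20.9 CPM) were high and cluster c5 was low at 1.31 to 5.07 CPM. These clusters took different shares of each library, so a class mean of Drd3 moves with the mix of clusters. Aged replicate 1 gave the highest Drd3 value of the 4 libraries in D1-like clusters c6, c7 and c8 and in all 3 D2-like clusters, and it held 2750 Drd3 UMIs in all against 1139 to 1481 in the others.

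**Figure D3:**
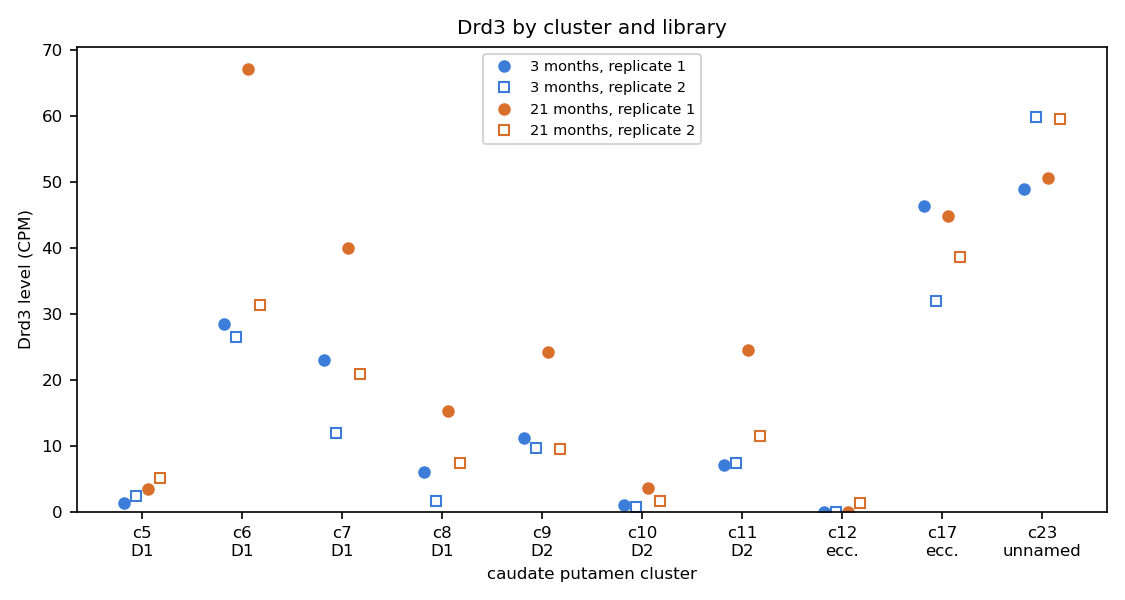
Drd3 level (CPM) in each cluster of medium spiny neuron-like nuclei and in unnamed cluster c23 of the caudate putamen, with a marker per library (blue 3 months, orange 21 months, filled circles replicate 1, open squares replicate 2). Aged replicate 1 stands highest in clusters c6 and c7, at 67.1 and 40 CPM, while clusters c17 and c23 show no such gap.

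Gnal, Adcy5, Pde10a and Rgs9, which act inside the cell downstream of the receptors, showed nearly equal levels in D1-like and D2-like nuclei. Gnal, at chr18:67088216-67226792, overlaps the coding genes Chmp1b and Mppe1. It measured 856, 861, 808 and 855 CPM in D1-like and 935, 938, 884 and 939 CPM in D2-like nuclei, 1.09 to 1.10 times higher in D2-like nuclei within a library. Pde10a showed a similar ratio of 1.08 to 1.10, from 4183, 4376, 4280 and 5221 CPM in D1-like to 4542, 4705, 4724 and 5700 CPM in D2-like nuclei. Both differences had the same direction in all 4 libraries, although for Pde10a the ranges of the 2 classes overlapped.

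Rgs9 measured 1021, 1048, 1060 and 1231 CPM in D1-like and 1053, 1055, 1091 and 1233 CPM in D2-like nuclei. Adcy5 measured 825, 797, 831 and 964 CPM in D1-like and 806, 781, 804 and 931 CPM in D2-like nuclei, a ratio of 0.966 to 0.979. Eccentric-like nuclei lay in the same range for Gnal (909 ± 45.8 CPM), Pde10a (4984 ± 273) and Rgs9 (1108 ± 62.4) and lower for Adcy5 (726 ± 47.7, each SD with n = 4). Striatal interneurons held far less of Rgs9, at most 219 CPM, and of Adcy5, at most 232 CPM. Oligodendrocyte-like nuclei of the caudate putamen held Adcy5 at 201 to 247 CPM and those of the hippocampus at 121 to 140 CPM.

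Ppp1r1b measured 87.7, 86.0, 61.8 and 69.6 CPM in D1-like, 83.0, 84.9, 57.9 and 66.6 CPM in D2-like and 77.6, 76.3, 44.5 and 50.7 CPM in eccentric-like nuclei. Its ratio of D2-like to D1-like nuclei was 0.937 to 0.987. Caudate putamen glia were close behind, with 77.0, 74.0, 37.2 and 50.9 CPM in oligodendrocyte-like and 61.5, 67.5, 37.0 and 44.4 CPM in astrocyte-like nuclei. Hippocampal oligodendrocyte-like nuclei held at most 0.627 CPM and hippocampal astrocyte-like nuclei 11.1 to 13.1 CPM. A shallow unnamed caudate putamen cluster, c13, whose median depth was 0.094 of its libraries' own, held the highest values, 443, 433, 169 and 237 CPM.

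The named classes of hippocampal neurons held few or no receptor UMIs. Drd1 stayed below 5 CPM in every hippocampal neuronal class and library, with 1.04, 1.24, 1.76 and 1.49 CPM in dentate granule-like nuclei. Dentate cluster c12, of 1014 nuclei, stood apart from the other dentate clusters, with Drd1 at 6.86, 5.11, 6.53 and 6.49 CPM against at most 2.93 CPM and Pde10a at 1309, 1323, 1291 and 1022 CPM against 288 to 355 CPM. Drd2 reached 7.54, 5.24, 8.30 and 4.72 CPM in interneuron-like nuclei and stayed below 1 CPM in granule-like, CA1-like and CA3-like nuclei. An unnamed cluster, c29, scored 2.257 for markers of CA3 neurons and 1.978 for those of mossy cells, a lead under the 0.5 needed for a name. It held Drd2 at 67.3, 44.1, 68.1 and 61.7 CPM, above all named hippocampal classes.

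Adora2a stayed at or below 0.488 CPM in dentate granule-like, CA1-like, CA3-like and interneuron-like nuclei. Drd3 stayed at or below 0.826 CPM in the same 4 classes. A small hippocampal astrocyte-like cluster, c2, of 243 nuclei, held Drd3 at 77.4, 43.9, 52.8 and 0 CPM, the last from 7 nuclei. The intracellular genes reached further: Pde10a measured 1437 to 1571 CPM in CA1-like nuclei, overlapping the 1455 to 1928 CPM of Pvalb/Pthlh-like interneurons, and Gnal 192 to 234 CPM in dentate granule-like nuclei. Rgs9 stayed at or below 50.2 CPM in the 5 tested hippocampal neuronal classes, with 22.4 to 24.2 CPM in granule-like nuclei.

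Genes with a pattern most like each of the 9 were found by the Pearson correlation of log2(CPM + 1) over 89 sums of a class in a library, among 14999 genes. The sums share libraries and regions, so r is a description. Tac1 was among the 3 nearest genes for Drd1 (r = 0.894). Mme, which encodes the enkephalin-cleaving enzyme neprilysin, came first for Drd2 (0.849), and Penk, the enkephalin gene, ranked 3 for Adora2a (0.870). Mean Mme levels were 85.6 CPM in D1-like and 92.8 CPM in D2-like nuclei, so Mme did not separate these types as Drd2 did. The nearest gene for Ppp1r1b was the transcription factor gene Six3 (0.914), for Gnal Galnt13 (0.830), for Pde10a the kinase gene Camk4 (0.910), for Rgs9 Gm13974 (0.867), and for both Adcy5 (0.752) and Drd3 (0.670) Gm38575. Of these genes, Tac1 and Penk also took part in naming clusters.

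The comparison of 21 with 3 months asked whether the level of these genes changes with age within a class. Of 75 pairs of gene and class that passed the filter on low counts, of 99 possible, 2 were called by edgeR's quasi-likelihood test with Benjamini-Hochberg adjustment over all genes of the class. Ppp1r1b was lower in aged D2-like nuclei and Rgs9 was lower in aged CA1-like nuclei. In D2-like nuclei 1 of 9 genes was called, where 4.86% of all 17319 genes tested were (2.79% lower and 2.07% higher). In CA1-like nuclei it was 1 of the 5 genes tested, beside 0.841% of 14634 genes (0.403% lower).

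In D2-like nuclei Ppp1r1b fell by 0.46 on the log2 scale (SE 0.08, -27.1%), with an adjusted p of 0.0249 by edgeR's quasi-likelihood test. Both aged libraries (57.9 and 66.6 CPM) lay below both young ones (83.0 and 84.9 CPM), an order that 24.9% of all genes tested in this class showed. Leaving out young replicate 1, young replicate 2 or aged replicate 1 ended the call (adjusted p = 0.0547, 0.104 and 0.067 by the same edgeR test), and leaving out aged replicate 2 did not (0.0444). Over all 15 alternative settings its log2 change ran from -0.55 to -0.37 and it was called in 12, with adjusted p from 0.000139 to 0.104.

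D1-like nuclei gave nearly the same estimate for Ppp1r1b, a log2 change of -0.43 (SE 0.08) with an edgeR adjusted p of 0.0561, which did not pass. DESeq2 called it there (adjusted p = 0.00232). Eccentric-like nuclei gave -0.69 (SE 0.12, edgeR adjusted p = 0.0923), also not called. With the replicate number as a block edgeR called Ppp1r1b in D1-like and eccentric-like nuclei, where 2820 and 69 of all genes were called. The difference of the age effect between D2-like and D1-like nuclei was -0.03 (SE 0.04, interval of 2 SE from -0.11 to 0.06). Aged libraries lay below young ones for 21.2% of all genes tested in eccentric-like nuclei.

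Ppp1r1b was also lower in the aged libraries of caudate putamen glia. It measured 41.4, 48.9, 14.7 and 25.1 CPM in oligodendrocyte precursor-like nuclei, beside the values given above for oligodendrocyte-like and astrocyte-like nuclei. The shallow unnamed cluster c13, whose highest-scoring marker list was that of D2 medium spiny neurons (5 of 6 markers), was lower in the aged libraries as well. Age was not tested in these nuclei, and all of these values come from the same 4 libraries as those of the neurons. The part of the level seen in glia in the result of D2-like nuclei was not tested. Markers of other cells were also summed in D2-like nuclei, and they do not measure free RNA of medium spiny neurons. The summed level of 7 oligodendrocyte markers was 145, 141, 147 and 166 CPM, and that of 6 astrocyte markers 33.9, 20.8, 41.4 and 53.9 CPM. The summed level of 6 microglia markers was 43, 51.3, 54.2 and 50 CPM, and that of 5 markers of dopaminergic neurons 7.84, 8.25, 10.3 and 10.4 CPM.

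**Figure D4:**
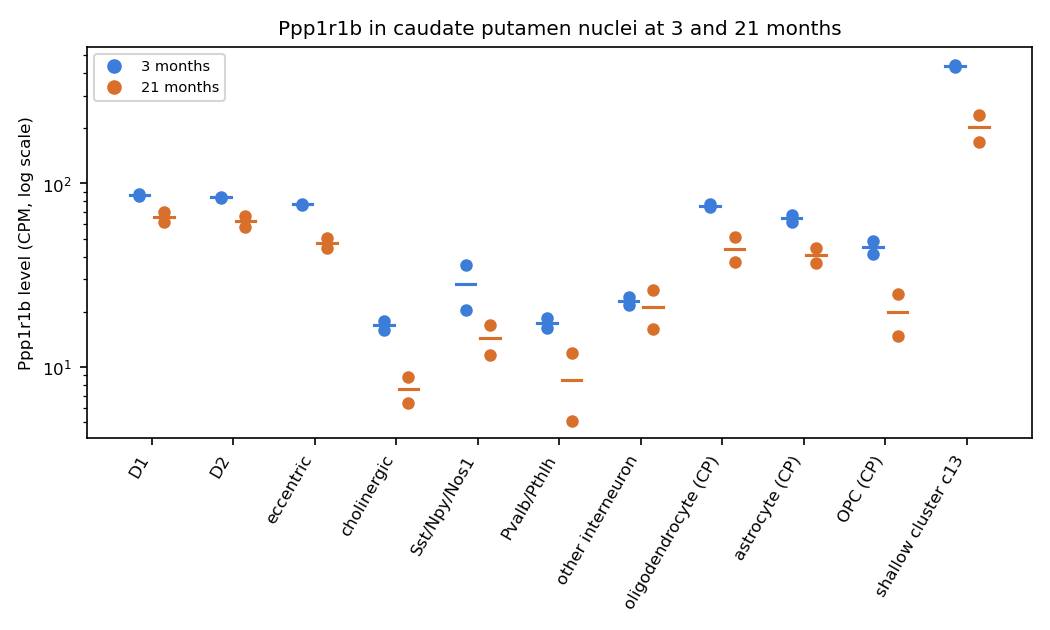
Ppp1r1b level (CPM, log axis) in caudate putamen classes and in the shallow unnamed cluster c13, with a point per library (blue 3 months, orange 21 months) and a bar at the mean of each age. The aged points lie below the young points in every class shown and in cluster c13, except in other interneuron-like nuclei, where the ages overlap.

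Rgs9 in CA1-like nuclei measured 15.9, 17.6, 7.45 and 10.5 CPM and fell by 0.85 on the log2 scale (SE 0.18, edgeR adjusted p = 0.0466). Both aged values lay below both young ones, as for 32.9% of all genes tested there. It was called in 10 of 15 alternative settings (adjusted p from 0.000531 to 0.579), and not by DESeq2 (0.247) nor, by edgeR, without aged replicate 1 (0.579), without young replicate 2 (0.0541), at equal depth (0.0517) or with doublets retained (0.0548). Aged libraries held 269 and 196 CA1-like nuclei, young ones 822 and 1112. Some marker sums were also lower in the aged libraries of CA1-like nuclei: the summed level of 6 astrocyte markers was 108, 108, 86.2 and 87.1 CPM, that of 6 microglia markers 61.9, 61.7, 53.1 and 58.3 CPM and that of 5 markers of dopaminergic neurons 36.2, 33.2, 28.7 and 28.3 CPM. The sum of 7 oligodendrocyte markers was not lower, at 80.2, 97.1, 100 and 127 CPM, and the part of other cells in the Rgs9 result was not tested. In hippocampal interneuron-like nuclei Rgs9 measured 18.4, 11.3, 5.37 and 5.15 CPM, with an edgeR adjusted p of 0.559.

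No gene of the 9 was called by edgeR in D1-like nuclei, where 1.27% of 18404 genes were. At an unadjusted p under 0.05 there were 2, Ppp1r1b and Drd1, where 19.7% of all genes tested were, and DESeq2 called 1, Ppp1r1b, and 740 of all genes. With the replicate number as a block edgeR called 3, Drd1, Drd3 and Ppp1r1b, and 2820 of all genes. Drd1 in D1-like nuclei was higher in both aged libraries (89.4 and 99.4 CPM) than in both young ones (79.7 and 78.4 CPM), a log2 change of 0.23 (SE 0.07) with an edgeR adjusted p of 0.157. In all, 3 of the 9 genes had both aged values above both young ones in D1-like nuclei (Drd1, Adcy5 and Rgs9) and 2 below (Ppp1r1b and Gnal), beside 29.3% and 22.5% of all genes tested. In D2-like nuclei Drd2, Pde10a and Rgs9 had both aged values above, where 30.3% of genes did. Drd2 in D2-like nuclei changed by 0.14 (SE 0.09, adjusted p = 0.393 by edgeR) and Adora2a there by 0.07 (SE 0.07, edgeR adjusted p = 0.607). Gnal, Adcy5, Pde10a and Rgs9 had log2 changes between -0.07 and 0.15 in D1-like and D2-like nuclei, and none of these was called. Across the 9 genes the median log2 change was 0.12 in D1-like and 0.12 in D2-like nuclei, beside 0.00 over all genes in both.

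Among the 9 genes in D1-like and D2-like nuclei, Drd3 had the largest estimates, 0.84 (SE 0.74) in D1-like and 1.26 (SE 0.90) in D2-like nuclei, and neither was called (edgeR adjusted p = 0.643 and 0.522). Aged replicate 1 held the highest Drd3 value in both classes, and without it the log2 changes were -0.06 and 0.12. Within clusters c5, c6, c8, c10 and c11 both aged values lay above both young ones, and in clusters c7 and c9 the ages overlapped. Cluster c8 held 6.06, 1.59, 15.3 and 7.43 CPM and cluster c11 7.11, 7.33, 24.5 and 11.4 CPM. Age was not tested within a cluster, and the share of all genes with this order there was not counted. The mix of clusters went with the replicate number, so leaving out aged replicate 1 also leaves that mix unequal between the ages. Whether Drd3 is called in these 2 classes depends on whether the replicate numbers are taken as pairs, which the labels do not state. In eccentric-like nuclei Drd3 changed by 0.23 (SE 0.17).

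**Figure D5:**
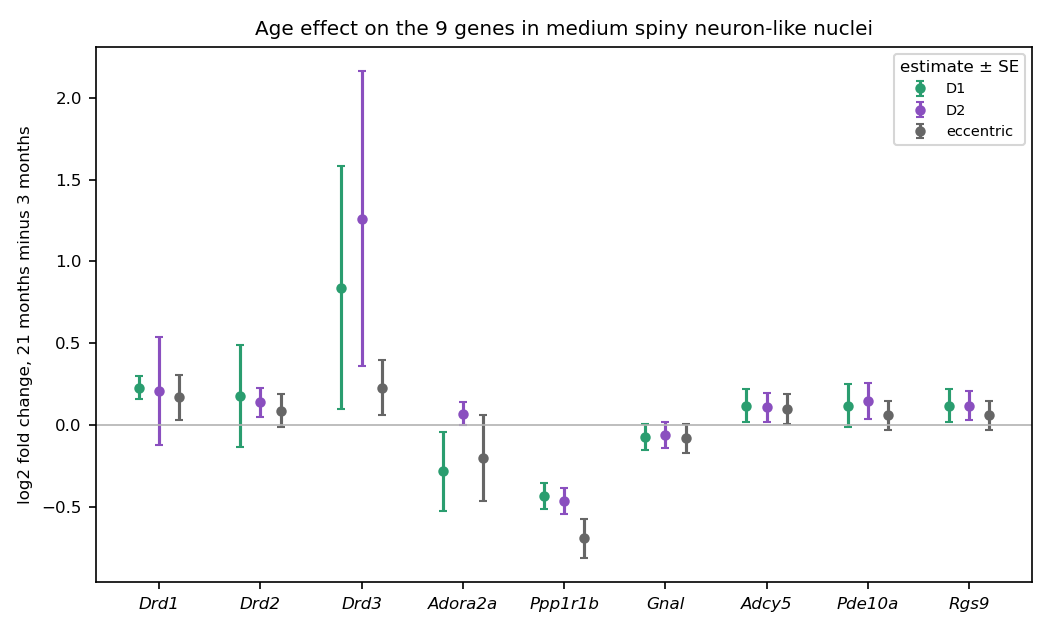
Log2 fold change of each gene, 21 months minus 3 months, in D1-like, D2-like and eccentric-like nuclei, with bars of 1 SE from the edgeR fit. Ppp1r1b lies below 0 in all 3 classes, between -0.43 and -0.69, and the bars of Drd3 are the widest in D1-like and D2-like nuclei.

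Among the other classes edgeR with the replicate number as a block called Ppp1r1b in eccentric-like and Gnal in dentate granule-like nuclei (69 and 1407 of all genes were). With no filter on low counts edgeR called Ppp1r1b in eccentric-like, Gnal in dentate granule-like and Rgs9 in hippocampal interneuron-like nuclei. There 219, 1763 and 102 of all genes were called. The main fit, with the filter and without the block, called none of the 9 genes in these other classes. Of all genes, edgeR called 0.00841% in eccentric-like nuclei (all 9 genes tested), 0.0664% in Pvalb/Pthlh-like interneurons (8 tested), 4.05% in dentate granule-like nuclei (7 tested), 0.128% in CA3-like nuclei (3 tested) and 2.28% in the subicular or cortical class (4 tested). At an unadjusted p under 0.05 there were 1, 2, 2, 0 and 0 of the 9 genes in these 5 classes, beside 11%, 9.41%, 18%, 6.16% and 13.3% of all genes. In Sst/Npy/Nos1-like, other striatal interneuron-like and hippocampal interneuron-like nuclei, with 8, 8 and 5 genes tested, edgeR called 0 of all genes as well and DESeq2 called 0, 0 and 3. At an unadjusted p under 0.05 there was 1 of the 9 genes in each of these 3 classes, beside 569, 653 and 795 of all genes (6.21%, 7.11% and 6.56%). DESeq2 called none of the 9 genes in any of these 8 classes. Gnal in dentate granule-like nuclei measured 234, 221, 196 and 192 CPM, a log2 change of -0.18 (SE 0.06, edgeR adjusted p = 0.139). The dentate clusters differed in size by age: cluster c9 held 1340, 3129, 387 and 330 nuclei and cluster c8 1108, 1723, 2016 and 1687.

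The test of whether age acted differently in D2-like and D1-like nuclei called none of the 9 genes, beside 0.128% of 18774 genes. Drd3 had an unadjusted p of 0.00599 in this edgeR fit, with a difference of 0.39 (SE 0.12) and an adjusted p of 0.537. For Gnal, Adcy5, Pde10a and Rgs9 the intervals of 2 SE all lay between -0.07 and 0.08, and for Drd1 the interval ran from -0.71 to 0.64. Leaving out aged replicate 2 called Adora2a, the only such call among the 4 fits that left out a library.

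The list of 70 other pathway genes covered G protein subunits, cyclases, phosphodiesterases, regulators and kinases. In D2-like nuclei 66 were tested, 6 were called lower and 0 higher, beside 2.79% and 2.07% of all genes, with a median log2 change of -0.03 over the list and 0.00 over all genes. The 6 were Prkar1a, a regulatory subunit of protein kinase A (-0.36, SE 0.06), the receptor kinase gene Grk5 (-0.53, SE 0.09), Arpp19, a phosphatase inhibitor (-0.34, SE 0.06), the G protein regulators Rgs4 (-0.38, SE 0.08) and Rgs2 (45.7, 57.1, 31.6 and 34.5 CPM), and Cdk5, a kinase that also phosphorylates DARPP-32 (-0.63, SE 0.12). Prkar1a measured 45.7, 45.3, 35.4 and 36.4 CPM and Cdk5 25.9, 19.8, 15.2 and 14.7 CPM, with the aged libraries below the young ones. When a library was left out, the 5 beside Rgs2 were called in at most 1 of the 4 fits.

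In D1-like nuclei 1 of 66 pathway genes was called lower and 0 higher, beside 0.82% and 0.451% of all genes. It was Cdk5, at 23.7, 20.8, 14.1 and 15.0 CPM (-0.64, SE 0.09, edgeR adjusted p = 0.0352), and it was called in 0 of the 4 fits that left out a library. Dentate granule-like nuclei had 3 called higher and 1 lower of 67, beside 2.27% and 1.78% of all genes, among them the cyclase gene Adcy2 (0.30, SE 0.06), the phosphodiesterase gene Pde8b (0.28, SE 0.06) and the arrestin gene Arrb2 (-0.42, SE 0.09). These 3 named genes were each called in 2 of the 4 fits that left out a library (edgeR adjusted p up to 0.319). In CA1-like nuclei Ppp1r1a, a phosphatase inhibitor related to Ppp1r1b, was called higher (0.69, SE 0.12; 0.437% of all genes were), from 39.1 and 33.1 to 54.9 and 55.0 CPM, and in 1 of the 4 fits that left out a library (edgeR adjusted p up to 0.226). Grk5 was called higher in the subicular or cortical class (0.71, SE 0.15; 1.12% of all genes were), whereas it was called lower in D2-like nuclei. In the subicular or cortical class it was called in 2 of the 4 fits that left out a library (edgeR adjusted p up to 0.295). The class is made of 3 clusters whose mix differed by age: c14 held 121, 111, 58 and 26 nuclei, c22 179, 99, 22 and 14, and c28 94, 94, 0 and 1; the part of this mix in the call was not tested. The remaining 6 classes had no call among the pathway genes tested.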

How the data were processed

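Single-nucleus RNA was measured in 8 libraries of mouse caudate putamen and hippocampus. The values used are raw UMI counts per gene and nucleus, as deposited by the authors. Per the file headers, Cell Ranger 6.1.2 made 7 of the matrices and 7.0.0 the other, that of young caudate putamen replicate 2, while the submitters' processing notes list Cell Ranger 4.0.0 and mm10. Whether intronic reads were counted is not given in the sources used here.

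Barcodes under 500 genes (1307) or over 5% mitochondrial UMIs (4) were dropped, and 10686 called doublets were removed (Scrublet in scanpy 1.11.5; an automatic threshold marking under 0.5%, or over 3 times the expected share, was replaced by the expected share). Each region was clustered on 3000 variable genes, 40 principal components and 20 neighbours with Leiden resolution 1.0 (igraph 0.11.9, leidenalg 0.10.2). The 9 genes and 70 pathway genes were left out of the clustering genes and of the marker lists. A cluster took the name of the list with the highest mean log2 fold among those with at least 3 markers at 10 CPM and a log2 fold of 1 (0.5 for subtypes of medium spiny neurons), with a lead of 0.5 over competing lists; near-identical lists, such as microglia and macrophages, did not compete. Subtypes of medium spiny neurons also needed 3 general markers of these neurons, and interneurons of no subtype were named from a general list. Clusters that also carried a second glial list, were led by mitochondrial genes, or had a depth over 3 times below that of their libraries with no marker among their leading genes stayed unnamed. These limits went through 3 versions after the data were seen, with the levels of Drd1 and Drd2 per cluster in view and before any test of age; the D1-like, D2-like and eccentric-like nuclei were identical under all 3.

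Counts were summed per class and library, where each library held at least 20 nuclei of the class. Ages were compared with edgeR 4.0.16 (R 4.3.3, limma 3.58.1): TMM scaling, filterByExpr, robust quasi-likelihood test, Benjamini-Hochberg adjustment over all genes of the class and calls at an adjusted p under 0.05. The difference of the age effect between D1-like and D2-like nuclei was an interaction term. Scripts were tested on simulated data. With 2 libraries against 2, an exact permutation test of 1 value cannot go below p = 0.333, so none was used. Alternatives were DESeq2 1.42.0, RLE scaling, no filter, the replicate number as a block, each library left out, doublets retained, Leiden resolutions of 0.5 and 2.0, clustering with the pathway genes, at least 1000 genes per nucleus, a gene length offset, equal depth and, for levels, TMM-scaled CPM.

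The 9 genes were named in every neuronal class, with called pathway genes (at most 5 per class by adjusted p; Rgs2 was named after its values were seen) and the 3 genes nearest to each of the 9 among those reaching 10 CPM in at least 1 class mean; some genes that this rule names are not reported here. Clusters and glia were singled out after their values were seen. The 9 genes and the lists were chosen with earlier results of these data known. Gene positions are from GENCODE on GRCm38 and upstream sequences from RefSeq on GRCm38.p6.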

Additional observations from a re-analysis of the deposited data

Results flagged for a closer look

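2 pathway genes outside the 9 had an age effect that differed between D2-like and D1-like nuclei by the interaction term of edgeR's quasi-likelihood test, where 0.128% of 18774 genes were called. Rgs2, a regulator of G proteins, measured 44.4, 58.7, 45.1 and 57.1 CPM in D1-like nuclei of young replicates 1 and 2 and aged replicates 1 and 2, and 45.7, 57.1, 31.6 and 34.5 CPM in D2-like nuclei. The aged libraries lay below the young ones in D2-like nuclei, while the ages overlapped in D1-like nuclei. The difference of the log2 age effects was -0.61 (SE 0.06, edgeR adjusted p = 0.00287), and it was called in 4 of the 4 fits that left out a library (adjusted p from 0.00123 to 0.0421).

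Pde1c, a phosphodiesterase, measured 369, 421, 626 and 571 CPM in D1-like and 415, 457, 605 and 542 CPM in D2-like nuclei. Both aged values lay above both young ones in both classes, as for 29.3% and 30.3% of all genes tested there. The age effect on Pde1c was not called by edgeR in either class. The difference of the log2 age effects was -0.20 (SE 0.03, edgeR adjusted p = 0.0373). It was called in 0 of the 4 fits that left out a library.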

How the results depend on the processing

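Of pairs of gene and class, 2 were called by edgeR. There were 6 with no filter on low counts, 1 with equal depth, and 1 to 4 when a library was left out (1 without aged hippocampal replicate 1 and 4 without young hippocampal replicate 2). DESeq2, RLE scaling, the length offset and the minimum of 1000 genes gave 2 each, and both other Leiden resolutions, retained doublets and clustering with the pathway genes 3 each. The difference between D1-like and D2-like nuclei gave 0 to 1 called gene when a library was left out, the 1 being Adora2a without aged caudate putamen replicate 2. The cause of these changes was not tested, and where 1 library of an age remained it was assumed to vary like the others. Leaving out a library reversed 9 estimates, none of them called in the fit of all libraries: in D1-like nuclei Drd2 (-0.29 to 0.53), Drd3 (-0.06 to 1.39), Adora2a (-0.67 to 0.01) and Pde10a (-0.02 to 0.25), in D2-like nuclei Drd1 (-0.29 to 0.57), and in eccentric-like nuclei Drd2 (-0.01 to 0.19), Adora2a (-0.57 to 0.21), Pde10a (-0.02 to 0.13) and Rgs9 (-0.02 to 0.13). With doublets retained Pde10a changed by -0.01 in eccentric-like nuclei. The share of D2-like nuclei with a Drd2 UMI was 67.4% at 2000 UMIs and 80.3% at 3000. The 9 genes had their highest neuronal level in a medium spiny neuron class under every alternative for levels, although TMM scaling moved 28 of 45 levels by over 1 SD, Leiden resolution 2.0 moved 7 and retained doublets 6. The class of other striatal interneurons could not be fitted at Leiden resolution 0.5 or with doublets retained. Few receptor UMIs stand behind many levels in hippocampal and interneuron classes, apart from Drd2 in cholinergic-like nuclei (264 to 563 UMIs per library).

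Labels do not say what a replicate number shares. Differences between replicates 1 and 2 correlated across ages at r = 0.52 in D1-like, 0.36 in D2-like and 0.14 in eccentric-like nuclei, and from -0.15 to 0.10 in the other classes, with only 2 pairs. With the replicate block 8 pairs of gene and class were called: Drd1, Drd3 (adjusted p = 0.0291 by edgeR) and Ppp1r1b in D1-like, Drd3 (0.000619) and Ppp1r1b in D2-like, Ppp1r1b in eccentric-like, Gnal in dentate granule-like and Rgs9 in CA1-like nuclei. In CA3-like nuclei, where r was -0.15, 16 genes were called without a block, 7 with it and 183 with crossed numbers, a setting chosen after seeing the data. Over all genes, calls without a block, with DESeq2, with no filter and with the block were 234, 740, 877 and 2820 in D1-like nuclei, 842, 884, 1810 and 2724 in D2-like, 1, 0, 219 and 69 in eccentric-like, 0, 0, 32 and 10 in Sst/Npy/Nos1-like, 7, 4, 66 and 25 in Pvalb/Pthlh-like, 0, 0, 32 and 47 in other striatal interneuron-like, 727, 687, 1763 and 1407 in dentate granule-like, 123, 105, 439 and 517 in CA1-like, 16, 14, 107 and 7 in CA3-like, 0, 3, 102 and 0 in hippocampal interneuron-like and 274, 167, 560 and 483 in subicular or cortical nuclei.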
